A study of Mus musculus with 9 samples.

Results

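The NRF2 antioxidant genes are 9 genes chosen by name, *Nfe2l2*, *Keap1*, *Hmox1*, *Nqo1*, *Gclc*, *Gclm*, *Srxn1*, *Txnrd1* and *Gsr*. All 9 were among the 15184 genes listed in the RNA-Seq table, so none was lost to the filter on low values. They were compared in mouse embryonic fibroblasts (MEFs) that carried the synergistic activation mediator (SAM) for *Hnrnpk*, a CRISPR system in which an inactive Cas9 and a guide RNA bring transcriptional activators to a chosen gene. The data comprised 9 libraries of polyA+ RNA, 3 from cells with the genotype Empty vector and 3 from each of the lines SAM1 and SAM2, both with the genotype Hnrnpk_SAM. Per the study's methods, SAM cells were wild-type MEFs transduced with lentiviruses for the activator proteins and for Cas9 with a guide, then selected with blasticidin and hygromycin. Control cells, per the same methods, carried the SAM vector with a nontargeting guide. As printed there, that guide has the same sequence as the *Hnrnpk* guide sgHnrnpk2. The labels do not say which guide SAM1 or SAM2 carried, nor whether the 3 libraries of a group came from separate cultures, so the p-values measure the spread between these libraries.

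NRF2, the product of *Nfe2l2*, is a transcription factor that switches on genes against oxidants and electrophiles. In resting cells KEAP1 holds NRF2 in the cytoplasm and hands it to a CUL3 ubiquitin ligase for destruction, and oxidants that modify cysteines of KEAP1 let NRF2 escape. Freed NRF2 pairs with a small MAF protein on antioxidant response elements and raises the transcription of enzymes that make and recycle glutathione and thioredoxin, detoxify quinones and degrade heme. Because NRF2 is controlled mainly as a protein, its mRNA alone is a poor gauge of its activity, and the mRNAs of its targets are commonly read instead.

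The antioxidant response element was searched as TGAC, any 3 bases and GCA, on both strands, in the 5000 bases before the start of the canonical transcript (GRCm39, GENCODE vM39). Of the 9 genes, 7 held at least 1 match and 5 held at least 2, and among all 13007 protein-coding listed genes with such a window 38.4% held at least 1 and 9.16% at least 2. In the 1000 bases before the start, 2 of the 9 genes held a match, against 8.62% of all these genes, and none of the 9 held more than 1. Both window lengths were chosen after the files were seen. *Nfe2l2* and *Keap1* held no match in either. Each site of 30 bases below is shown because its gene is followed in the results. It is read along the strand on which the motif lies, and the capitals mark the match.
*Gclc*, 3771 bases before the start, chr9:77658016-77658045, minus strand: cgcctcaccgTGACTCAGCActctgcgcgg
*Gclc*, 1998 bases before the start, chr9:77659789-77659818, minus strand: tacacctgcaTGACTCAGCAggacagctgc
*Hmox1*, 3864 bases before the start, chr8:75816367-75816396, minus strand: gaacagagggTGACTCAGCAaaatctgtct
*Gsr*, 744 bases before the start, chr8:34142512-34142541, plus strand: acgtttcttaTGACTTAGCAgtatttaatc
*Txnrd1*, 66 bases before the start, chr10:82694937-82694966, minus strand: cgtgtcagaaTGACAAAGCAaaaatccagt
*Gclm*, 1842 bases before the start, chr3:122037274-122037303, plus strand: agactcacaaTGACTTTGCAgccaagttct
*Srxn1*, 3022 bases before the start, chr2:151944412-151944441, plus strand: gctggagaaaTGACCAAGCAggttggggag
*Nqo1*, 1447 bases before the start, chr8:108131362-108131391, plus strand: ggatgctgtgTGACCAGGCAgcttcgtctg
Further matches in the windows of *Gsr*, *Hmox1*, *Nqo1* and *Txnrd1* are not shown. The site of *Txnrd1* lies inside the span of the gene, since its canonical transcript starts downstream of others. Among the sites shown, those reading TGACTCAGCA, both of *Gclc* and that of *Hmox1*, also contain the letters TGACTCA, to which AP-1 factors bind. These matches are a description of the sequence and do not show that NRF2 was bound there.

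Library depth was similar between groups. The deposited values were counts divided by the DESeq2 size factor of each library, and the reads recovered from them came to between 41759636 and 49026626 on the listed genes. *Hnrnpk*, the targeted gene, averaged 25773 ± 621 normalized counts in empty vector, 23922 ± 264 in SAM1 and 26563 ± 321 in SAM2 (mean ± SD, n = 3 each). Its log2 difference from empty vector was -0.11 in SAM1 (adjusted p = 0.00252, limma) and 0.044 in SAM2 (adjusted p = 0.159, limma). Over both lines it was -0.032 (adjusted p = 0.642, limma). Its RNA was thus not called higher in either line, whereas the study reports overexpression by qRT-PCR and Western blot. The libraries are called here by their labels. Normalized counts summed to 48686625 to 49041969 in the empty vector libraries and to 43909125 to 45489906 in the SAM libraries. When library totals were made equal instead, a setting chosen after seeing the data, the median log2 difference of all genes rose from 0.0087 to 0.13 in the SAM libraries against empty vector, and 65.3% of calls were higher in place of 49.8%. Under this setting the median of all genes was 0.15 in SAM1 and 0.10 in SAM2, to be set beside the values given with equal totals. In single lines the share of higher calls moved from 50.3% to 63.8% for SAM1 and from 49.9% to 61.3% for SAM2. All 12 fibroblast markers examined were listed, with summed levels of 1160290 to 1260520 in empty vector, 927155 to 984856 in SAM1 and 1269170 to 1310000 in SAM2. Single markers moved both ways. Of the 12, 3 were called higher and 9 lower in SAM1, where 37.3% and 36.9% of all genes were. In SAM2 the counts were 3 and 5, beside 35.2% and 35.3%. *Dcn* went from 11815 in empty vector to 2713 in SAM1 and 2538 in SAM2, and *S100a4* from 12963 to 31914 and 13065. Of 10 macrophage markers 4 were listed, with sums of 1487 to 1524, 2513 to 2673 and 1756 to 1775 in the same order, and *Ptprc*, *Adgre1* and *Itgam* were not among them. Of 6 endothelial markers 4 were listed, and their summed level was 301 to 357 in empty vector, 4613 to 4988 in SAM1 and 638 to 689 in SAM2, nearly all of it *Kdr* (4693 in SAM1), while *Pecam1* had a mean of 29.5 in SAM1. Of 7 epithelial markers, *Cdh1* and *Krt8* were listed, with sums of 110 to 113 in SAM1 and at most 52.4 elsewhere. In bulk RNA, fewer cells of a type and less RNA per cell cannot be told apart.

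Most of the NRF2 antioxidant genes were higher in SAM cells, and the lines differed in how much. With both lines taken as 1 group of 6 libraries against the 3 empty vector libraries, 7 of the 9 genes rose and none fell (limma, Benjamini-Hochberg adjusted p below 0.05 over all listed genes), against 53.9% of all listed genes called, 26.8% higher and 27.0% lower. Their median log2 difference was 0.32, against 0.0087 over all genes. Without empty vector replicate 1 the count was 5, and with the replicate number as a block it was 6. With each line on its own, 7 rose and 1 fell in SAM1, where 74.3% of all genes were called, 37.3% higher and 36.9% lower, and 8 rose in SAM2, where 70.5% were called, 35.2% higher and 35.3% lower. The median differences of the 9 genes were 0.35 in SAM1 and 0.25 in SAM2. Between the lines 6 of the 9 genes differed, against 60.3% of all genes. SAM2 was lower than SAM1 for 4 of them (29.2% of all genes) and higher for 2 (31.1% of all genes). The 2 lines were set against the same 3 empty vector libraries, so their differences from empty vector are not independent of each other.

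**Figure D1:**
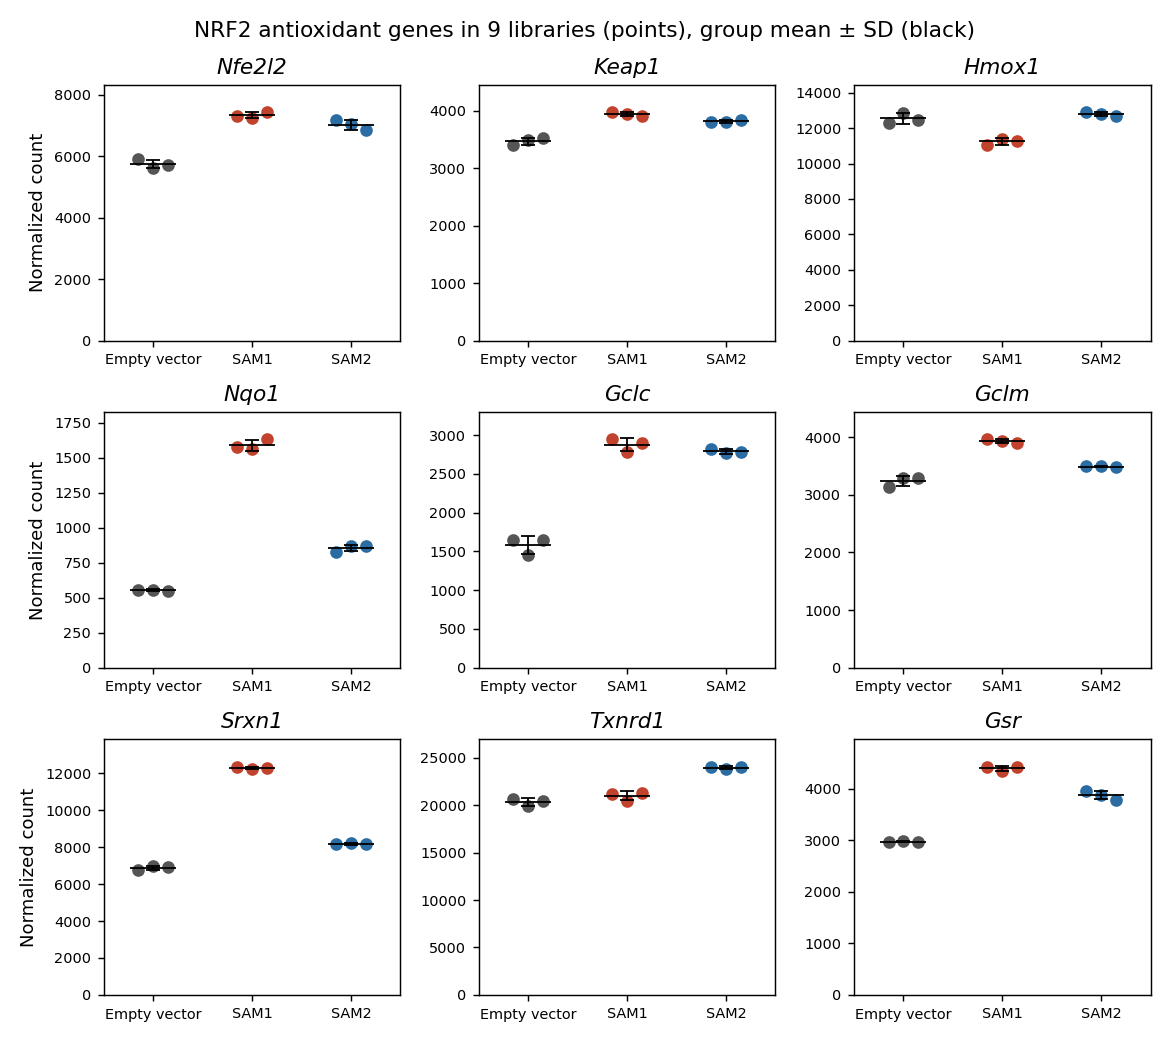
Normalized count (y axis, from 0) of each NRF2 antioxidant gene in the 9 libraries, in empty vector, SAM1 and SAM2. Points are libraries, and black bars are the group mean ± SD (n = 3). *Nqo1* lay at 549 to 558 in empty vector, 1559 to 1629 in SAM1 and 828 to 867 in SAM2, and *Hmox1* stayed between 11056 and 12899 throughout.

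*Nfe2l2* and *Keap1*, the factor and its inhibitor, both rose modestly in both lines. *Nfe2l2* is a minus-strand gene of chromosome 2 (GRCm39, 75504739 to 75534985). It had normalized counts of 5893, 5627 and 5695 in empty vector, 7309, 7230 and 7424 in SAM1, and 7172, 7042 and 6843 in SAM2. Every SAM library lay above every empty vector library. The rise was 1.28-fold in SAM1 (log2 difference 0.35, standard error 0.0296, adjusted p = 1.55e-07, limma) and 1.22-fold in SAM2 (0.29, adjusted p = 1.25e-06, limma). SAM2 minus SAM1 was -0.061 with a 95% confidence interval from -0.13 to 0.0032 (adjusted p = 0.0922, limma). With quantile normalization this difference between the lines was -0.10 (adjusted p = 0.0068, limma) and with equal library totals -0.1 (adjusted p = 0.00901, limma).

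*Keap1* lies on chromosome 9 from 21141026 to 21150679 on the minus strand. It had 3400, 3485 and 3522 normalized counts in empty vector, 3976, 3938 and 3912 in SAM1, and 3799, 3813 and 3838 in SAM2. The groups did not overlap, with SAM2 between the other two. The rise was 1.14-fold in SAM1 (log2 difference 0.18, adjusted p = 4.76e-05, limma) and 1.10-fold in SAM2 (0.14, adjusted p = 0.00063, limma). The lines differed by -0.047 (95% confidence interval -0.11 to 0.014, adjusted p = 0.166, limma), and this passed 0.05 with quantile normalization (-0.099, adjusted p = 0.00823, limma) and with equal library totals (-0.085, adjusted p = 0.0198, limma). Within each library the log2 ratio of *Nfe2l2* to *Keap1*, which a scaling of whole libraries cannot move, averaged 0.73 ± 0.0583 in empty vector, 0.89 ± 0.027 in SAM1 and 0.88 ± 0.0416 in SAM2 (SD, n = 3 each). The ratio was 0.16 higher in the 6 SAM libraries, which is given as a description since the pair was chosen after its values were seen. The spans of the antisense transcripts E030042O20Rik and Gm16754 overlap exons of *Nfe2l2* and *Keap1*. Whether counting used the strand is not given in the sources used here, so reads of such pairs may be mixed. These transcripts had at most 30.4 and 32.2 normalized counts in any library.

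*Nqo1* encodes NAD(P)H quinone dehydrogenase, which reduces quinones without leaving a reactive semiquinone and is the usual readout of NRF2 activity. It rose most of the 9 genes in SAM1. *Nqo1* is a minus-strand gene of chromosome 8 (108113835 to 108129934). It had normalized counts of 554, 558 and 549 in empty vector, 1573, 1559 and 1629 in SAM1, and 828, 865 and 867 in SAM2. The 3 groups were far apart compared with the spread within them. The rise was 2.86-fold in SAM1 (log2 difference 1.52, standard error 0.0408, adjusted p = 1.66e-12, limma) and 1.54-fold in SAM2 (0.62, adjusted p = 1.59e-08, limma). SAM2 lay 0.89 below SAM1 on the log2 scale (difference -0.89, adjusted p = 1.01e-09, limma). The summed endothelial and macrophage markers given above had the same order of groups as *Nqo1*. Among the single listed endothelial and macrophage markers, *Kdr* (211, 536 and 4693 in empty vector, SAM2 and SAM1) and *Cd14* (828, 1046 and 1644) had this order. *Cd68*, *Csf1r*, *Lyz2*, *Pecam1*, *Cdh5* and *Tek* did not, and *Csf1r* (225, 111 and 252) and *Lyz2* (78.2, 45.3 and 181) were lowest in SAM2. The fibroblast markers *Pdgfrb* (6569, 9513 and 12577) and *S100a4* (12963, 13065 and 31914) and the epithelial marker *Krt8* (12.2, 16.7 and 23.0) had this order as well. The other listed fibroblast markers and *Cdh1* did not. The part of these markers in this result was not tested.

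*Hmox1*, which encodes the heme oxygenase that opens the heme ring, did not follow *Nqo1*. It lies on chromosome 8 from 75820241 to 75827217 on the plus strand. It had 12301, 12882 and 12465 normalized counts in empty vector, 11056, 11417 and 11277 in SAM1, and 12899, 12777 and 12667 in SAM2. SAM1 lay below both other groups, and SAM2 overlapped empty vector. The log2 difference was -0.16 in SAM1 (adjusted p = 0.000149, limma), and it was -0.0068 (adjusted p = 0.836, limma) with quantile normalization and -0.015 (adjusted p = 0.643, limma) with equal library totals. In SAM2 it was 0.027 (95% confidence interval -0.032 to 0.085, adjusted p = 0.398, limma), and 0.12 (adjusted p = 0.00143, limma) or 0.13 (adjusted p = 0.00117, limma) under those scalings. SAM2 lay above SAM1 by 0.18 (adjusted p = 6.6e-05, limma). With both lines as 1 group the difference was -0.065 (95% confidence interval -0.20 to 0.071, adjusted p = 0.389, limma).

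**Figure D2:**
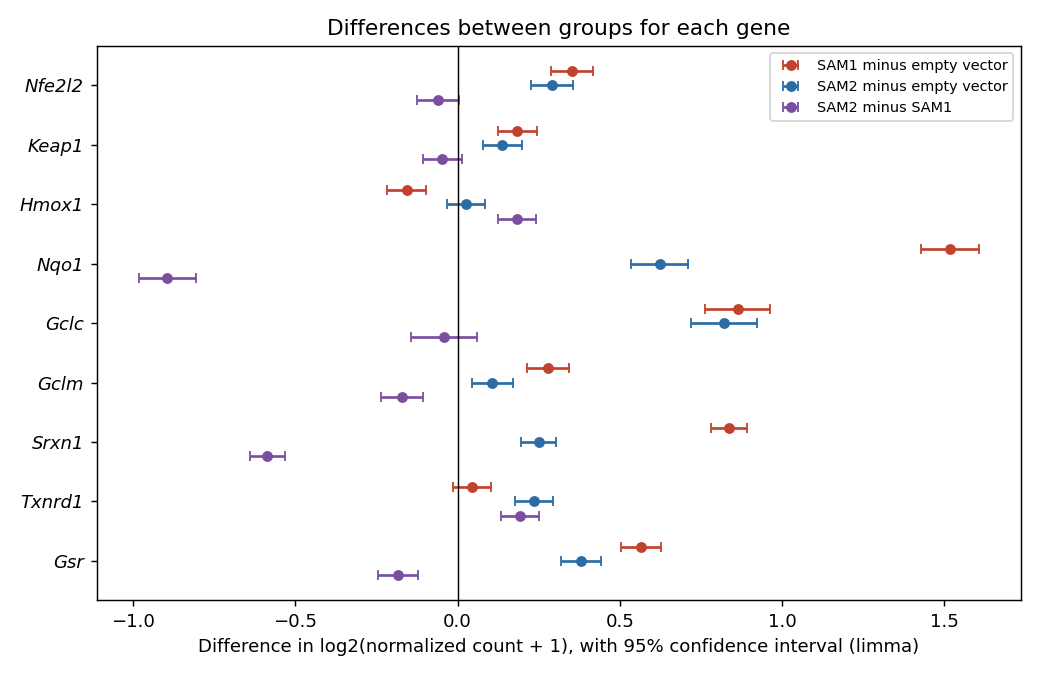
Difference in log2(normalized count + 1) for each gene (x axis), with the 95% confidence interval from limma, for SAM1 minus empty vector (red), SAM2 minus empty vector (blue) and SAM2 minus SAM1 (purple). *Gclc* lies near 0.8 in both lines with a difference between the lines across 0, while *Nqo1* and *Srxn1* lie further right in SAM1 than in SAM2.

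All 3 glutathione genes among the 9, which encode the subunits of glutamate-cysteine ligase and glutathione reductase, rose in both lines. Outside the 9, *Gss*, which encodes glutathione synthetase, was lower under the deposited scaling. Its log2 difference was -0.15 in SAM1 (adjusted p = 0.0125, limma) and -0.31 in SAM2 (adjusted p = 5.81e-05, limma). *Gclc* encodes the catalytic subunit of glutamate-cysteine ligase, the rate-limiting enzyme of glutathione synthesis. It lies on chromosome 9 from 77661797 to 77701770 on the plus strand. It had 1644, 1453 and 1648 normalized counts in empty vector, 2942, 2779 and 2898 in SAM1, and 2825, 2765 and 2783 in SAM2. All SAM libraries lay well above the empty vector libraries, and the lines overlapped each other. The rise was 1.82-fold in SAM1 (log2 difference 0.86, adjusted p = 1.72e-09, limma) and 1.77-fold in SAM2 (0.82, adjusted p = 3.99e-09, limma). The difference between the lines was -0.042, with a 95% confidence interval from -0.14 to 0.06 (adjusted p = 0.46, limma).

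*Gclm* encodes the modifier subunit, which makes the ligase more efficient, and lies on chromosome 3 from 122039126 to 122065061 on the plus strand. It had 3142, 3291 and 3293 normalized counts in empty vector, 3960, 3935 and 3898 in SAM1, and 3493, 3503 and 3477 in SAM2. The groups did not overlap, and SAM2 was close to empty vector. The rise was 1.21-fold in SAM1 (log2 difference 0.28, adjusted p = 1.66e-06, limma) and 1.08-fold in SAM2 (0.11, adjusted p = 0.00566, limma), and the lines differed by -0.17 (adjusted p = 0.000254, limma). With both lines as 1 group the difference of 0.19 (adjusted p = 0.0178, limma) became 0.17 (adjusted p = 0.0739, limma) without empty vector replicate 1. The span of the antisense transcript Gm17494, which had at most 18.5 normalized counts, overlaps exons of *Gclm*. *Gclm* also overlaps the processed pseudogene Gm6061.

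Within each library the log2 ratio of *Gclc* to *Gclm* averaged -1.04 ± 0.127 in empty vector, -0.45 ± 0.0428 in SAM1 and -0.32 ± 0.0175 in SAM2 (SD, n = 3 each). It was 0.65 higher in the SAM libraries, again a description of a pair chosen after its values were seen. *Gsr* encodes glutathione reductase, which returns oxidized glutathione to its reduced form with NADPH, and lies on chromosome 8 from 34142551 to 34188192 on the plus strand. It had 2970, 2993 and 2959 normalized counts in empty vector, 4423, 4343 and 4427 in SAM1, and 3950, 3885 and 3788 in SAM2. No groups overlapped, and SAM2 was in between. The rise was 1.48-fold in SAM1 (log2 difference 0.56, adjusted p = 8.69e-10, limma) and 1.30-fold in SAM2 (0.38, adjusted p = 6.25e-08, limma), with a difference between the lines of -0.18 (adjusted p = 0.000111, limma).

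Of the genes of the thioredoxin arm, *Srxn1* rose in both lines and *Txnrd1* in SAM2. *Srxn1* encodes sulfiredoxin, which restores overoxidized peroxiredoxins, and lies on chromosome 2 from 151947436 to 151957687 on the plus strand. It had 6760, 6987 and 6926 normalized counts in empty vector, 12368, 12259 and 12273 in SAM1, and 8157, 8241 and 8177 in SAM2. The SAM1 libraries stood far above the others. The rise was 1.78-fold in SAM1 (log2 difference 0.84, adjusted p = 5.06e-12, limma) and 1.19-fold in SAM2 (0.25, adjusted p = 1.14e-06, limma), and SAM2 minus SAM1 was -0.59 (adjusted p = 5.74e-10, limma). With both lines as 1 group the difference was 0.54 (adjusted p = 0.0213, limma). That pooled call was lost with the replicate block (adjusted p = 0.0529, limma) and without empty vector replicate 1, 2 or 3 (adjusted p = 0.0675, 0.0591 and 0.0617, limma), while the difference stayed between 0.53 and 0.55.

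*Txnrd1* encodes the cytosolic thioredoxin reductase and lies on chromosome 10 from 82669785 to 82733546 on the plus strand. It had 20675, 19907 and 20418 normalized counts in empty vector, 21194, 20428 and 21299 in SAM1, and 24063, 23814 and 23981 in SAM2. SAM2 lay above both other groups, and SAM1 overlapped empty vector. The rise was 1.18-fold in SAM2 (log2 difference 0.24, adjusted p = 3.57e-06, limma). In SAM1 the difference was 0.045 (95% confidence interval -0.013 to 0.1, adjusted p = 0.149, limma). It passed 0.05 in SAM1 without SAM1 replicate 2 (0.064, adjusted p = 0.0445, limma), with quantile normalization (0.25, adjusted p = 2.21e-06, limma) and with equal library totals (0.19, adjusted p = 1.58e-05, limma). With both lines as 1 group it was 0.14 (95% confidence interval -0.0013 to 0.28, adjusted p = 0.0875, limma), and it passed 0.05 at 0.17 (adjusted p = 0.0353, limma) without SAM1 replicate 2, at 0.32 (adjusted p = 0.000621, limma) with quantile normalization and at 0.26 (adjusted p = 0.0023, limma) with equal library totals. *Eid3*, inside *Txnrd1* on the same strand, had at most 74.1 normalized counts. SAM2 was 0.19 above SAM1 (adjusted p = 4.16e-05, limma), the direction of *Hmox1* and the opposite of that of *Nqo1*, *Srxn1*, *Gclm* and *Gsr*.

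Levels were compared between genes as normalized counts per kilobase of the canonical transcript. In empty vector *Hmox1* was the highest, at 7958 ± 190.1 (SD, n = 3), followed by *Txnrd1* at 6115 ± 118 (SD, n = 3) and *Nfe2l2* at 1597 ± 38.4 (SD, n = 3). *Gsr* (1113 ± 6.4, SD, n = 3) and *Keap1* (1083 ± 19.5, SD, n = 3) came next and were close compared with their spread, then *Srxn1* at 957 ± 16.3 (SD, n = 3). *Gclm* (511 ± 13.7, SD, n = 3) and *Gclc* (459 ± 32.4, SD, n = 3) were also close, and *Nqo1* was the lowest at 207 ± 1.64 (SD, n = 3). In SAM1 the level of *Gclc*, 834 ± 24.6 (SD, n = 3), was above that of *Gclm*, 619 ± 4.95 (SD, n = 3), and the level of *Nqo1*, 594 ± 13.8 (SD, n = 3), came near that of *Gclm*. In SAM2 *Txnrd1* reached 7204 ± 38.2 (SD, n = 3) and *Nqo1* 319 ± 8.23 (SD, n = 3). This order depends on the length used. Per kilobase of all annotated exons, *Gsr* in empty vector was at 429, below *Keap1* at 610 and *Srxn1* at 734, and in SAM1 *Gclc* at 459 was below *Gclm* at 494, with *Nqo1* at 578 above both.

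The study describes gained chromosomes in its SAM cells, so each gene was set beside the other listed genes of its chromosome. The 1145 other listed genes of chromosome 2 had a median log2 difference of 0.27 in SAM1 and 0.16 in SAM2. *Nfe2l2*, on this chromosome, had 0.35 and 0.29, and 44.7% of those genes were above it in SAM1 and 37.7% in SAM2. *Srxn1* is on chromosome 2 as well, with 20.1% of its genes above it in SAM1 and 41.5% in SAM2. On chromosome 9 the median of 845 genes was -0.16 in SAM1 and -0.12 in SAM2, and *Keap1* and *Gclc* were higher although that chromosome was lower as a group. On chromosome 8, with medians of 0.081 and 0.017 over 795 genes, 7.80% of genes were above *Nqo1* in SAM1 and 13.7% in SAM2. The 19 listed genes starting within 2 Mb of *Nfe2l2* had a median of 0.28 in SAM1 and 0.16 in SAM2. Genes starting within 2 Mb of *Nqo1* had a median of 0.18 in SAM1 (55 genes), and those within 2 Mb of *Gclc* had -0.038 (16 genes). Only 4 listed genes lay that near to *Hmox1*, with a median of 0.67 in SAM1 and 0.18 in SAM2. The part of chromosome number in these results was not tested.

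**Figure D3:**
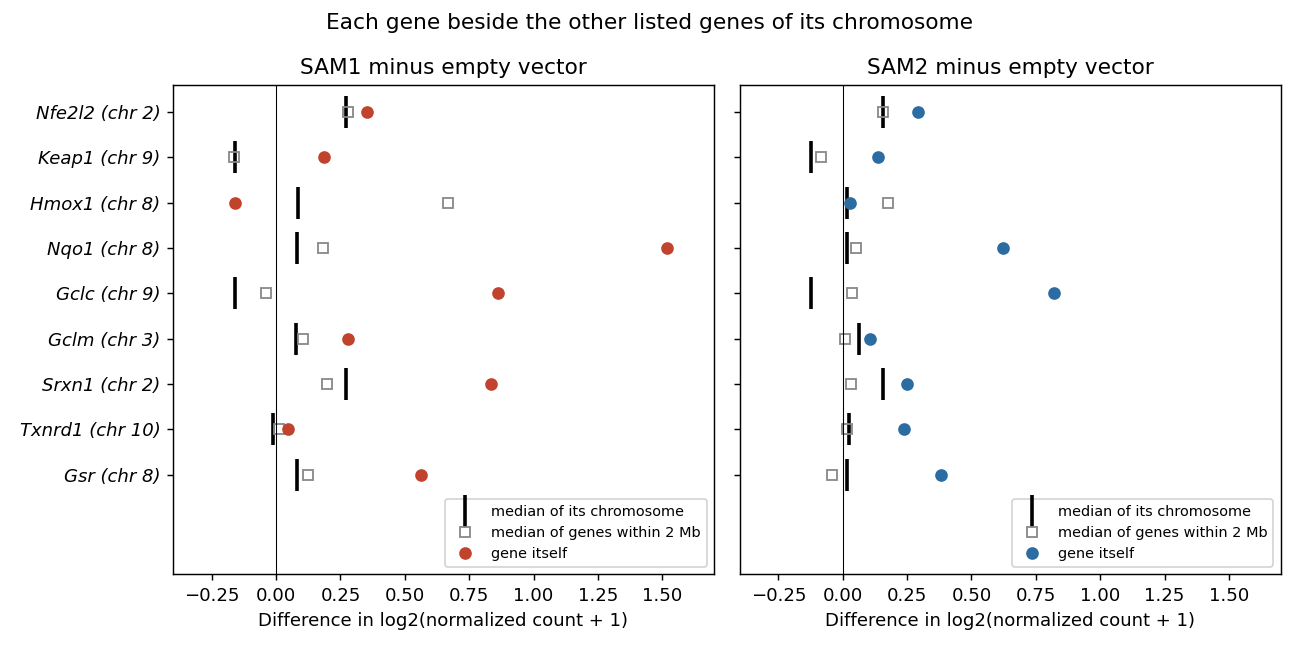
Difference in log2(normalized count + 1) from empty vector (x axis) of each gene (filled circle), the median of the other listed genes of its chromosome (black bar) and of listed genes starting within 2 Mb (open square), for SAM1 and SAM2. *Nfe2l2* lies near the bar of chromosome 2 in SAM1, whereas *Gclc* and *Nqo1* lie far to the right of theirs.

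The other lists of the pathway are read against the share of all listed genes called. It was 26.8% higher and 27.0% lower over both lines, 37.3% and 36.9% in SAM1, and 35.2% and 35.3% in SAM2. With equal library totals, 5344 of the 15184 genes were called higher and 2838 lower over both lines. In SAM1 the numbers were 7232 and 4101, and in SAM2 6555 and 4131. Counts given below with equal totals are to be set beside these. Among the regulators and partners of NRF2, more genes fell than rose under the deposited scaling. Of 15 such genes, all listed, 1 rose and 8 fell with both lines as 1 group, 1 rose and 11 fell in SAM1, and 3 rose and 10 fell in SAM2, with a median of -0.14, -0.14 and -0.11. With equal library totals the counts of these regulators were 2 and 3, 3 and 4, and 4 and 5. Their medians were then -0.021, 0.001 and -0.0017, against 0.13, 0.15 and 0.10 over all genes, so they still lay below the median of all genes. *Mafg*, a small MAF partner of NRF2 on DNA, fell from 7506 ± 286 (SD, n = 3) to 6517 in SAM1 and 6495 in SAM2 (log2 difference -0.21 over both lines, adjusted p = 0.000585, limma), and was -0.083 (adjusted p = 0.0707, limma) with equal totals. The other small MAF genes went different ways. *Maff* rose by 0.16 in SAM1 (adjusted p = 0.00048, limma) and 0.15 in SAM2 (adjusted p = 0.000733, limma). *Mafk* was at -0.0085 in SAM1 (adjusted p = 0.808, limma) and -0.087 in SAM2 (adjusted p = 0.0194, limma). *Fbxw11*, a substrate receptor that can mark NRF2 for degradation, fell from 9864 to 7215 and 8268 (-0.35, adjusted p = 0.00136, limma). *Nfe2l3* and *Nfe2l1*, relatives of *Nfe2l2*, fell in both lines as well. *Nfe2l3* went from 129 to 30.4 and 62.4, and *Nfe2l1*, which controls proteasome genes, from 32873 to 16973 and 24923. *Sqstm1*, whose product binds KEAP1 and carries it to autophagy, fell in SAM1 (33306 against 44417, log2 difference -0.42, adjusted p = 3.61e-08, limma) and rose in SAM2 (48464, 0.13, adjusted p = 0.0022, limma).

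Other target genes of NRF2 did not move as a block. Of 31 such genes 27 were listed, with 11 higher and 5 lower over both lines, 15 higher and 6 lower in SAM1, and 12 higher and 11 lower in SAM2. Of all listed genes 53.9%, 74.3% and 70.5% were called in these comparisons. With equal library totals the counts were 12 and 4, 19 and 5, and 13 and 9. Their median log2 difference over both lines was 0.013, against 0.0087 over all genes, and it was 0.15 with quantile normalization, against -0.036 over all genes, and 0.14 with equal library totals, against 0.13. *Osgin1*, a growth inhibitor induced by oxidative stress, rose from 353 to 749 in SAM1 and 673 in SAM2 (1.01 over both lines, adjusted p = 3.1e-06, limma). *G6pdx*, the first enzyme of the pentose phosphate pathway and a source of NADPH, rose from 3509 to 4757 and 5092 (0.49, adjusted p = 1.37e-05, limma). *Ephx1*, a microsomal epoxide hydrolase, rose from 1109 to 1714 and 1945 (0.72, adjusted p = 1.71e-05, limma).

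The target genes that differed most between the lines went opposite ways. *Gsta4*, a glutathione transferase for aldehydes from lipid peroxidation, had a mean of 376 in empty vector, 2884 in SAM1 and 890 in SAM2. It was -1.69 on the log2 scale in SAM2 minus SAM1 (adjusted p = 1.02e-10, limma). *Slc7a11*, the exchanger that brings in cystine for glutathione, had 2754 in empty vector, 1360 in SAM1 and 3594 in SAM2. It fell in SAM1 (log2 difference -1.02, adjusted p = 5.7e-10, limma) and rose in SAM2 (0.39, adjusted p = 1.15e-05, limma), with 1.40 between the lines (adjusted p = 8.91e-11, limma). Thus in SAM1 the cystine exchanger was lower while *Gclc*, *Gclm* and *Gsr* were higher. Glutathione transferases form a family of similar genes whose reads can map to several members, which makes the values of *Gsta4* and *Gstm5* uncertain.

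**Figure D4:**
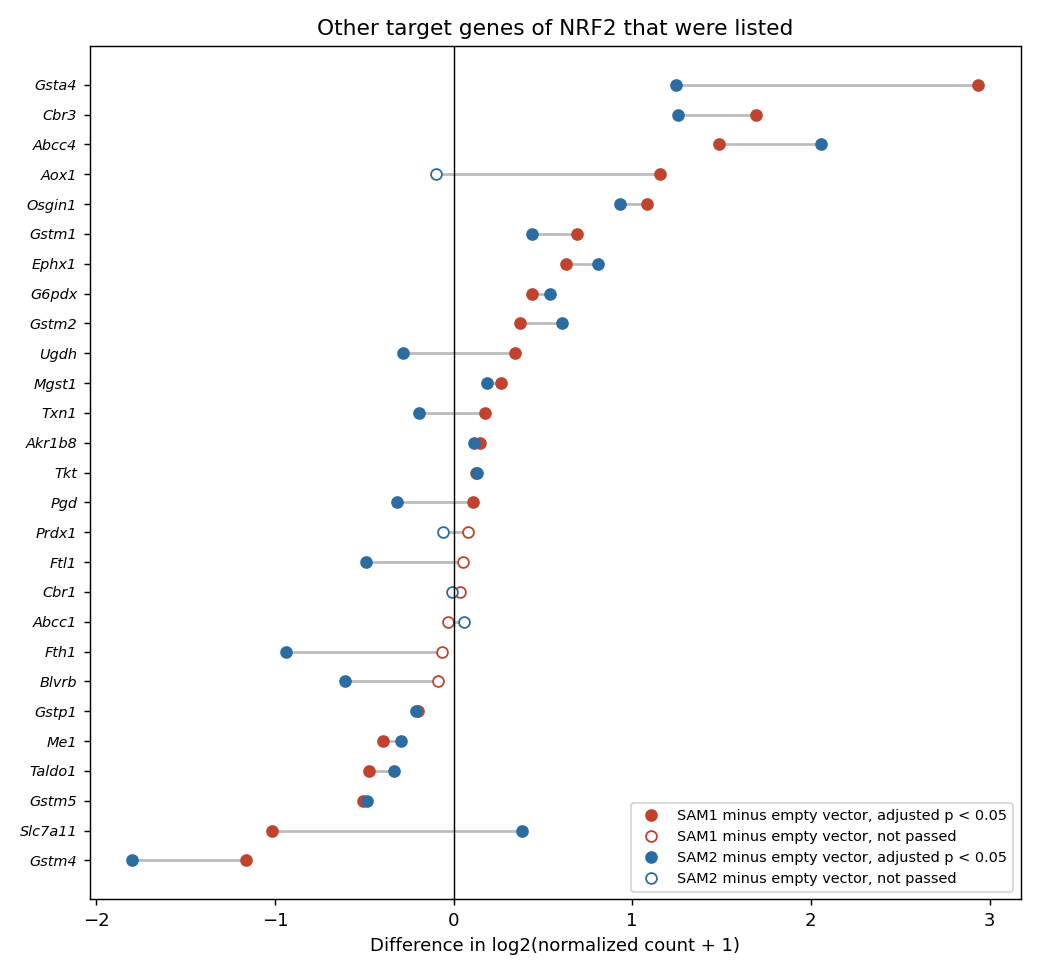
Difference in log2(normalized count + 1) from empty vector (x axis) for the 27 other listed target genes of NRF2, in SAM1 (red) and SAM2 (blue), ordered by SAM1. Filled points passed an adjusted p of 0.05 in limma and open points did not. *Gsta4* is the highest in SAM1 at 2.94, and *Slc7a11* is at -1.02 in SAM1 and 0.39 in SAM2.

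The genes of glutathione supply and use, 31 of 34 listed and partly shared with the targets above, had 9 higher and 9 lower over both lines, 13 and 13 in SAM1, and 13 and 12 in SAM2, where 53.9%, 74.3% and 70.5% of all genes were called. With equal library totals the counts were 11 and 5, 17 and 9, and 16 and 11. Under that setting more of all genes were called higher than lower as well. *Gpx7*, a peroxidase of the endoplasmic reticulum, rose from 186 to 904 in SAM1 and 885 in SAM2 (2.26 over both lines, adjusted p = 5.57e-09, limma). *Abcc4*, an exporter of organic anions, rose from 702 to 1971 and 2923 (1.77, adjusted p = 1.96e-05, limma), and *Gstm5* fell from 2030 to 1430 and 1453 (-0.49, adjusted p = 3.58e-05, limma). Of 18 genes of the thioredoxin and peroxiredoxin system, 2 rose and 2 fell over both lines, 5 rose and 7 fell in SAM1, and 4 rose and 5 fell in SAM2, beside 53.9%, 74.3% and 70.5% of all genes called. With equal library totals the counts were 5 and 2, 8 and 6, and 10 and 4. *Prdx6*, a peroxiredoxin that also acts on phospholipids, fell from 10608 to 7253 and 7132 (-0.56, adjusted p = 3.08e-06, limma), and *Txnrd3* fell from 1282 to 842 and 881 (-0.57, adjusted p = 2.23e-05, limma). *Msra*, which repairs oxidized methionine, rose from 245 to 633 and 555 (1.28, adjusted p = 4.41e-06, limma). *Sesn2*, a stress-induced sestrin, had 3208 in empty vector, 1811 in SAM1 and 3269 in SAM2, and *Msrb3*, another methionine sulfoxide reductase, had 6022, 4419 and 6330. Both fell in SAM1 and were higher in SAM2 than in SAM1, by 0.85 (adjusted p = 1.87e-10, limma) and 0.52 (adjusted p = 1.01e-08, limma).

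Of 12 genes grouped under NADPH supply, not each of which need make NADPH itself, 4 rose and 5 fell over both lines. In SAM1 6 rose and 4 fell, and in SAM2 5 rose and 7 fell. Of all genes 53.9%, 74.3% and 70.5% were called in these comparisons. With equal library totals the counts were 5 and 3, 7 and 4, and 5 and 6. *Nadk2*, the mitochondrial NAD kinase, rose from 1241 to 2395 and 2116 (0.86, adjusted p = 6.4e-06, limma), and *Me1*, the cytosolic malic enzyme, fell from 5275 to 4004 and 4296 (-0.35, adjusted p = 0.000264, limma). *Me2*, the mitochondrial malic enzyme, and *Idh1*, cytosolic isocitrate dehydrogenase, were lower in SAM2 than in SAM1, by -0.58 (adjusted p = 4.77e-09, limma) and -0.39 (adjusted p = 3.88e-08, limma). Of 13 genes of heme and iron handling, 3 rose and 3 fell over both lines, 4 and 4 in SAM1, and 3 and 7 in SAM2, beside the same shares. With equal library totals the counts were 4 and 2, 6 and 3, and 4 and 6. *Flvcr1*, described as a heme exporter, fell from 2002 to 1331 and 1427 (-0.54, adjusted p = 1.02e-05, limma). *Fech*, which inserts iron into heme, rose from 2433 to 3165 and 3134 (0.37, adjusted p = 2.8e-05, limma), and *Abcb6*, a porphyrin transporter, from 62.5 to 128 and 126 (1.01, adjusted p = 6.69e-05, limma). *Tfrc*, the transferrin receptor, was 11665 in SAM1, 7565 in SAM2 and 8514 in empty vector. *Fth1*, the ferritin heavy chain, was 74082 in SAM1 and 40311 in SAM2 against 77353 in empty vector, a log2 difference of -0.94 in SAM2 (adjusted p = 3.92e-10, limma) and -0.062 in SAM1 (adjusted p = 0.201, limma), the latter 0.29 with quantile normalization.

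Of 5 genes of superoxide and peroxide removal, 3 rose and 1 fell over both lines and in each line, where 53.9% of all genes were called over both lines, 74.3% in SAM1 and 70.5% in SAM2. With equal library totals SAM1 had 4 higher and 1 lower. *Sod3*, the extracellular superoxide dismutase, rose from 65.2 to 2805 in SAM1 and 385 in SAM2 (log2 differences 5.41 and 2.55, adjusted p = 7.51e-15 and 1.33e-11, limma). *Cat*, catalase, rose from 4513 to 5673 and 6528 (0.43, adjusted p = 0.000376, limma). *Ccs*, the copper chaperone of superoxide dismutase, fell from 1634 to 1161 and 1136 (-0.51, adjusted p = 0.000248, limma).

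Across the 9 libraries, the members fell into profiles that followed the groups. The log2 values of *Nqo1* correlated with those of *Srxn1* at r = 0.991 and of *Gclm* at r = 0.984, and those of *Nfe2l2* with *Gclc* at r = 0.983 and *Gsr* at r = 0.979. *Txnrd1* correlated with *Nqo1* at r = 0.0752 and *Hmox1* with *Nqo1* at r = -0.825. These values describe 9 libraries in 3 groups and mostly restate the order of the group means. Among all listed genes, the profiles most like *Nfe2l2* were those of *Apba1* (r = 0.995), *Kif18b* (r = 0.994) and *Ehmt2* (r = 0.994). The most like *Nqo1* were *Nmt2*, *Pcdh7* and *Ces1a*, each with r of 0.999.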

How the data were processed

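RNA-Seq of polyA+ RNA from 9 MEF libraries was analysed. Per the study's methods and processing notes, reads were checked with FastQC (0.11.0), aligned to GRCm39 with TopHat2 and Bowtie, counted per gene of GENCODE with HTSeq, and filtered on low values. The deposited values are a signal, the counts divided by DESeq2 size factors by the authors. They are not raw counts. In 9 libraries 100% of values were whole multiples of the value of 1 read (tolerance 0.1 read), which gave the depth. Counting error and library number limit the precision.

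Groups came from the labels. The test was limma (3.58.1, R 4.3.3, trended empirical Bayes) on log2(value + 1), with Benjamini-Hochberg adjustment over 15184 genes and a threshold of 0.05, once with both SAM lines as 1 group, as in the study, and once with 3 groups. Fold changes are on this scale. Alternatives were pseudocount 10, a mean of at least 50, quantile normalization, a replicate block, edgeR (4.0.16) and DESeq2 (1.42.0) on the recovered reads, each library left out, and equal library totals, added later. The tests over both lines were checked on simulated data in which the lines changed alike. That check does not cover genes that differ between the lines.

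The members and lists were chosen with earlier results of these data known. Named genes were the 9 members, and from each list the 3 with the smallest adjusted p over both lines and the 2 with the smallest between the lines. Further genes, such as *Gss*, *Maff* and *Mafk*, were named after their values were seen. Of the listed gene names, 14791 were found once in GENCODE vM39. The motif windows of 1000 and 5000 bases were chosen after the files were seen. No pair of libraries within a group was a repeat of the other (chi-square of their reads, per gene, 1.46 to 13.8). The n of 3 a group counts libraries. This check cannot tell whether they came from separate cultures.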

Additional observations from a re-analysis of the deposited data

Results flagged for a closer look

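The difference between the lines SAM2 and SAM1, which share the same genotype label, passed an adjusted p of 0.05 in limma for 6 of the 9 NRF2 antioxidant genes, against 60.3% of all listed genes. *Nqo1* (-0.89) and *Srxn1* (-0.59) had the largest log2 differences of SAM2 minus SAM1, followed by *Gsr* (-0.18) and *Gclm* (-0.17), all lower in SAM2. *Txnrd1* (0.19) and *Hmox1* (0.18) were higher in SAM2. Groups of 3 libraries were too small to look for single libraries that stand apart.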

How the results depend on the processing

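Leaving out each library in turn gave 5 to 8 of the 9 genes called over both lines, 8 to 9 in SAM1, 8 in SAM2 and 6 between the lines, and 6761 to 8133, 10734 to 11150, 10014 to 10893 and 8235 to 9492 of all genes. The replicate block gave 6, 8, 8 and 6 genes and 7343, 11631, 11095 and 9812 of all genes, and among the 9 genes it ended the pooled call of *Srxn1* alone. Same-numbered libraries deviated together weakly (mean r = 0.0531, 9 pairs, from 0.00237 to 0.117, against -0.0265 over 18 pairs with other numbers), and 8 of 9 libraries matched best with a library of their own number, a hint from the data at something shared. The numbers were not used as pairs, because the labels give them no shared source and not every pair exceeded 0.1. edgeR and DESeq2 on the recovered reads called 7, 8, 8 and 6 of the 9 genes. Of all genes, edgeR called 8168, 11301, 10634 and 9320, and DESeq2 called 8468, 10806, 10120 and 8653. Of the single-gene differences from empty vector or between the lines, none that was called changed sign under these alternatives. Quantile normalization and equal library totals changed calls of *Hmox1* and *Txnrd1* against empty vector and of *Nfe2l2* and *Keap1* between the lines, as given above, and the pooled call of *Txnrd1*. Taking the mean of the lines in the fit with 3 groups called all 9 genes, with *Hmox1* at -0.065 (adjusted p = 0.0225, limma). That setting also called more of all genes, 11323 against 8179 in the main fit. The ratio of *Gclc* to *Gclm* kept a difference of 0.58 to 0.70 without any 1 library. The lowest value of the 9 genes, 549 normalized counts of *Nqo1*, lay far above the filter on low values, so depth limited mainly the overlapping antisense transcripts.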

Other observations

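A further 3 targets of NRF2 in iron and heme handling, picked after their values were seen, were lower in SAM2 and not called in SAM1 under the deposited scaling. *Fth1* had 77353 normalized counts in empty vector, 74082 in SAM1 and 40311 in SAM2, *Ftl1*, the ferritin light chain, had 10824, 11233 and 7706, and *Blvrb*, a biliverdin reductase, had 755, 710 and 493. Their log2 differences in SAM2 were -0.94, -0.49 and -0.61 (adjusted p = 3.92e-10, 4.85e-06 and 1.41e-05, limma). Ferritin genes have processed pseudogenes, so their counts are uncertain by shared reads. *Cbr3*, a carbonyl reductase, rose from 190 to 614 in SAM1 and 451 in SAM2 (log2 differences 1.69 and 1.25, adjusted p = 2.45e-09 and 6.8e-08, limma), while its neighbour in function *Cbr1* had 2054, 2106 and 2038 normalized counts.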
